A study of Aedes aegypti with 19 samples.

Results

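IMD, DOME and HOP are core genes of 2 immune signalling pathways, and they were followed here in the ovaries of blood-fed (BF) and sugar-fed (SF) Aedes aegypti females. They were taken by their symbols from the 19381 genes in the files, and all 3 were found. The series held 19 libraries of total ovary RNA, from BF and SF ovaries taken 3, 10 and 20 days after the blood meal (days 3, 10 and 20). Each group had 3 libraries (replicates 1, 2 and 4), and the BF group of day 3 had replicate 3 as well. The BF groups were females of a Poza Rica (Mexico) colony that engorged once on warmed sheep blood at an age of 4 to 7 days. The SF groups were females of the same colony and age that got sugar and no blood, and every group had 10% sucrose throughout. Each library was made from pooled ovaries from which any remaining eggs had been taken out, so the spread between libraries is a spread between pools, not between single females. In such bulk samples, fewer cells of a type and less RNA per cell cannot be told apart.

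In the IMD pathway of insects, peptidoglycan recognition proteins (PGRPs) sense bacterial cell wall and recruit the adaptor protein IMD. A complex of IMD, FADD and the caspase Dredd then acts through the kinase TAK1 and the IKK complex on the transcription factor REL2, the mosquito Relish, which switches on antimicrobial peptide genes. In the JAK-STAT pathway, a cytokine binds the receptor DOME (Domeless), the kinase HOP (Hopscotch) is activated at the receptor, and STAT moves to the nucleus. The JAK-STAT pathway limits dengue virus in the midgut of this mosquito, and in the ovary of Drosophila it also patterns follicle cells.

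All 3 genes lie on chromosome 2 of the AaegL5.0 genome and code for protein. IMD (chr2:200496927-200498373, minus strand) is short, with 2 exons and a single intron of 78 bases. DOME (chr2:218722653-218754221, plus strand) has 12 exons, 3882 exon bases and 27687 intron bases. HOP (chr2:364390211-364460119, plus strand) has 14 exons, 5624 exon bases and 64285 intron bases. No other gene in the files overlaps any of them, and between 98.6% and 100% of their reads in a library were unique to the gene.

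Between 34651820 and 56274885 reads per library fell on genes, so depth did not limit the 3 genes on gene reads: IMD had between 209 and 760 reads per library, DOME between 7062 and 11965, and HOP between 7097 and 12591. The 4 BF libraries of day 3 stood apart from the rest in their share of reads outside annotated exons. Such reads made up 9.11% to 13.2% of their gene reads, against 3.95% to 6.15% in the other 15 libraries. Exon and intron reads are therefore given separately below. The germline marker osk, which codes for the posterior determinant Oskar of the oocyte, was high in the ovary libraries, with 2712 ± 215 CPM in BF (SD, n = 4) and 3558 ± 175 CPM in SF ovaries (SD, n = 3) on day 3, a fall in BF of -0.39 on the log2 scale (FDR p-value 1.13e-04). CPM are gene reads relative to the size of the library after TMM scaling, which assumes most genes to be unchanged.

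On the RPKM scale, which divides exon reads by exon length, the order of the 3 genes did not vary. DOME lay between 39.8 and 63.4 RPKM over the 19 libraries, HOP between 25.2 and 37.2 RPKM and IMD between 3.23 and 10.4 RPKM. The ranges do not overlap, so each library had DOME above HOP and HOP above IMD. IMD varied most, with a coefficient of variation of 35.7% in CPM over the 19 libraries, against 10.4% for DOME and 7.47% for HOP.

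IMD was higher in BF than in SF ovaries on each of the 3 days. On day 3, IMD had 15.1, 13.7, 14.9 and 11.1 CPM in BF replicates 1, 2, 3 and 4, against 7.60, 9.63 and 7.82 CPM in SF replicates 1, 2 and 4. Each BF library lay above each SF library, as for 32% of tested genes, and BF replicate 4 came nearest to the SF group. The log2 fold change was 0.72 (SE 0.13, FDR p-value 1.01e-04), which is 1.64-fold with a 95% interval of 1.36 to 1.99. Across all genes, 64.9% of the 13904 tested were called at an FDR p-value under 0.05 on that day, 32.3% of those tested were called higher in BF, and 28.4% of genes had a log2 fold change above that of IMD. The rise of IMD on day 3 was thus one of many.

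On day 10, IMD had 14.1, 14.6 and 12.4 CPM in BF replicates 1, 2 and 4, against 6.22, 5.82 and 7.21 CPM in SF replicates. The groups were far apart, with the lowest BF library well above the highest SF library, and 18.5% of tested genes had BF above SF without overlap. Expressed as a log2 fold change, this was 1.10 (SE 0.14, FDR p-value 1.61e-04), or 2.14-fold with a 95% interval of 1.75 to 2.62. On this day 19.3% of all tested genes were called, 8.55% were called higher in BF, and 4.03% had a log2 fold change above that of IMD.

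On day 20, IMD had 10.8, 11.1 and 10.6 CPM in BF replicates 1, 2 and 4, against 5.16, 4.96 and 6.06 CPM in SF replicates. The BF libraries were nearly equal and again all above the SF libraries, as for 18% of tested genes. This gave a log2 fold change of 1.00 (FDR p-value 3.08e-04, SE 0.14), or 2.01-fold with a 95% interval of 1.64 to 2.46. Of all tested genes, 21.4% were called on day 20, 9.31% were called higher in BF, and 5.88% had a log2 fold change above that of IMD. IMD was among the 521 genes, 3.75% of those tested, that were called higher in BF on all 3 days. The calls held under each of the 11 other settings tried and without each of the 19 libraries in turn.

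**Figure D1:**
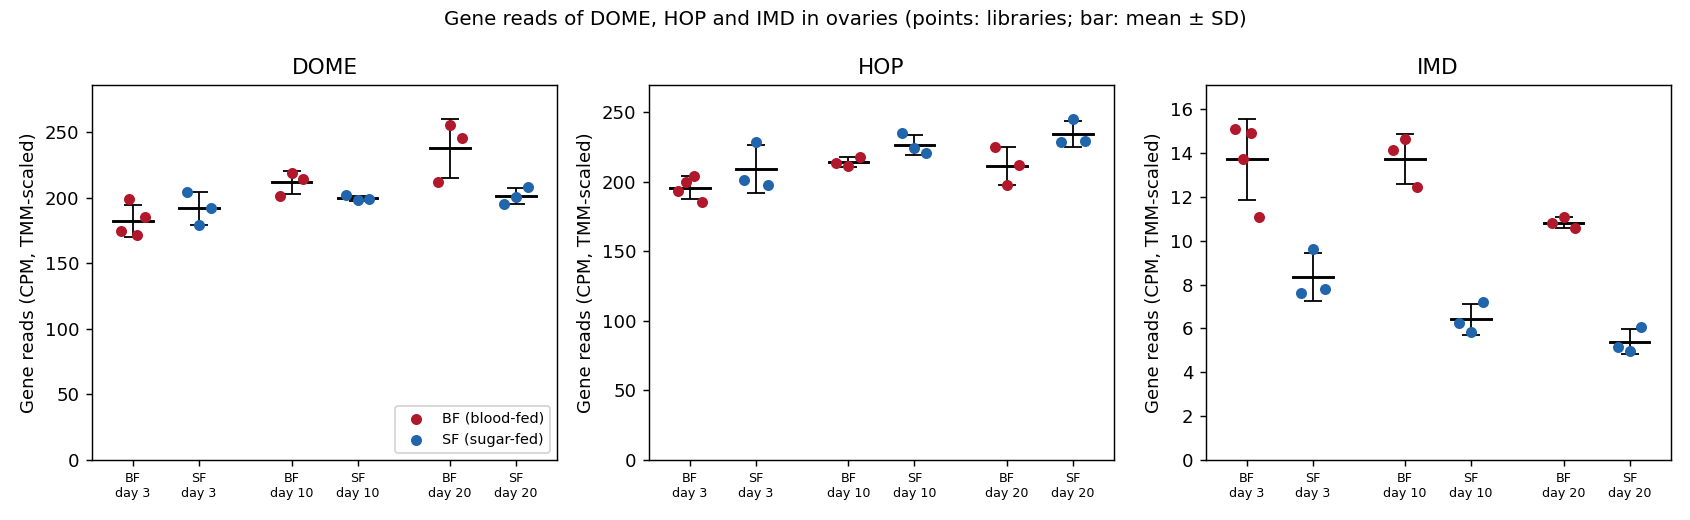
Gene reads of DOME, HOP and IMD in CPM (TMM-scaled), with 1 point for each library and the mean ± SD of each diet and day as bars. IMD lay at 10.6 CPM or above in each BF library and at 9.63 CPM or below in each SF library. For DOME and HOP the BF and SF points lay closer together. They did not overlap for DOME on day 20, with BF higher, as for 18% of tested genes. HOP did not overlap on days 10 and 20, with BF lower, as for 20.2% and 19.2% of tested genes.

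Ordered by mean level, the 3 BF groups of IMD came first and the 3 SF groups after them. In BF ovaries IMD averaged 13.7 ± 1.84 CPM on day 3 (SD, n = 4), 13.7 ± 1.15 on day 10 and 10.8 ± 0.249 on day 20 (SD, n = 3 each), and BF days 3 and 10 overlapped. In SF ovaries it averaged 8.35 ± 1.11 CPM on day 3, 6.42 ± 0.713 on day 10 and 5.39 ± 0.587 on day 20 (SD, n = 3 each), and SF days 10 and 20 overlapped. The level of IMD in SF ovaries was lower on day 20 than on day 3, with a log2 fold change of -0.63 (FDR p-value 0.00637, SE 0.14), in a comparison that called 17.6% of all tested genes. In BF ovaries, day 20 was lower than day 3 by a log2 fold change of -0.34 (FDR p-value 0.0259, SE 0.13), where 66.8% of tested genes were called. That BF call was lost without any 1 of 9 libraries: BF day 3 replicates 1, 2 or 3, BF day 10 replicates 1 or 2, SF day 10 replicate 1, or any BF library of day 20 (FDR p-values up to 0.105). The comparisons of days 10 and 20 with day 3 within a diet share the day 3 libraries.

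The difference between diets was not shown to change with the day. For IMD, the effect on day 10 minus that on day 3 was 0.38 on the log2 scale (95% interval -0.01 to 0.78, FDR p-value 0.121), and the effect on day 20 minus that on day 3 was 0.29 (95% interval -0.11 to 0.68, FDR p-value 0.246). Both intervals allow a larger difference on the later day as well as an equal one.

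The difference in IMD was present on exon reads. With gene-read scaling, the log2 fold changes on exon reads were 0.71 (SE 0.13) on day 3, 1.10 (SE 0.14) on day 10 and 1.01 (SE 0.14) on day 20, all called (FDR p-values 1.34e-04, 1.96e-04 and 2.65e-04), where 61.6%, 18.7% and 21.7% of the 13297 genes tested on exon reads were. Reads that span an exon-exon junction, and so come from spliced RNA, were few: between 30 and 74 in a BF and between 27 and 40 in an SF library. Scaled to CPM, these junction reads lay between 1.25 and 1.42 in BF, against 0.599 to 0.786 in SF libraries on day 10, and between 0.873 and 1.13 in BF, against 0.514 to 0.676 in SF libraries on day 20. Spliced IMD reads were thus higher in each BF library on the later days, on few reads. No share over all genes is given for junction reads. On gene reads, 18.5% and 18% of tested genes had BF above SF without overlap on days 10 and 20. On day 3 the junction reads of IMD overlapped, with 0.647 to 1.23 CPM in BF and 0.770 to 0.832 CPM in SF libraries, since BF replicate 4 was below the SF group. The intron of IMD gave only 13 to 15 reads in BF and 2 to 12 reads in SF libraries on day 3, too few for a firm value.

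Markers of other cell types were set beside these values. The list named for the fat body held only 2 transferrins, Tf1 and Tf2, taken by symbol, and how far each marks fat body was not tested. Both were called higher in BF on day 3, where 32.3% of all tested genes were. Their sum was 186 to 505 CPM in BF, against 117 to 124 CPM in SF libraries. Tf1 alone lay at 16.6 to 323 CPM in BF, against 10.3 to 17.6 CPM in SF libraries on that day. On the later days the sums overlapped (111 to 115 CPM in BF, 114 to 130 CPM in SF on day 10, and 112 to 150 CPM in BF, 122 to 135 CPM in SF on day 20), but Tf2 made up most of them and the 2 genes lay on opposite sides. Tf1 was higher in each BF library, with 13.8 to 17.2 CPM in BF, against 3.52 to 12.8 CPM in SF libraries on day 10 (log2 fold change 1.04, FDR p-value 0.381), and 14.1 to 39.8 CPM in BF, against 4.06 to 6.76 CPM in SF libraries on day 20 (2.09, FDR p-value 0.0803 by edgeR and 0.0199 by DESeq2). Tf2 was lower in each BF library on both days, and the fall was called on day 20 (-0.27, FDR p-value 0.0338), where 12.1% of all tested genes fell. Over all tested genes, 18.5% and 18% had BF above SF without overlap on days 10 and 20, and 20.2% and 19.2% had BF below SF. For the hemocyte list of 7 prophenoloxidases, 0 were called by edgeR, limma-voom or DESeq2 on any day. On days 3, 10 and 20, 0, 1 and 1 had an unadjusted edgeR p under 0.05. Of all tested genes, edgeR called 64.9%, 19.3% and 21.4% on these days. The sum of the hemocyte list was 7.54 to 8.71 CPM in BF, against 5.45 to 6.48 CPM in SF libraries on day 10, without overlap. Of single tested genes, 18.5% had BF above SF without overlap on that day. The sums of that list overlapped on day 3 (7.15 to 9.20 CPM in BF, 6.78 to 10.0 CPM in SF) and on day 20 (6.97 to 9.02 CPM in BF, 6.67 to 7.57 CPM in SF). The eggshell gene 15a-1, a vitelline membrane protein gene, lay at 0.259 to 3.44 CPM in BF, against 0.0197 to 0.166 CPM in SF libraries on day 3. All 3 tools called it higher in BF on that day, where edgeR called 32.3% of all tested genes higher. The midgut gene LT1 (late trypsin) stayed at or below 0.141 CPM in all libraries. The germline list of 7 genes held osk and 6 genes of the PIWI family, which act in small RNA silencing. In BF on day 3, 2 rose by edgeR (PIWI3 by 0.58 and PIWI5 by 1.34 on the log2 scale), where 32.3% of all tested genes did. At the same time 3 fell (osk, PIWI4 at -0.54 and PIWI7 at -1.39), where 32.6% of all tested genes did. On day 10, PIWI2 and PIWI5 rose, by 0.84 and 0.55, and PIWI4 fell (-0.31), where 8.55% of all tested genes rose and 10.7% fell. On day 20 PIWI4 alone was called (-0.41), where 21.4% of all tested genes were. With edgeR, PIWI5 was thus called in the direction of IMD on days 3 and 10, as were PIWI3 on day 3 and PIWI2 on day 10. By limma-voom and DESeq2, PIWI2 was also called higher in BF on day 3 (FDR p-values 0.0429 and 0.0392), where edgeR gave 0.0682. PIWI4 was called the other way on all 3 days, and osk and PIWI7 on day 3. PIWI5 overlaps PIWI6 on the same strand (median 12297 reads for PIWI6, 2122 for PIWI5), so its reads are uncertain. PIWI7 overlaps AAEL022397 on the opposite strand (median 1945 reads for AAEL022397), so its reads are uncertain as well. The part of these cells in the difference in IMD was not tested.

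Around IMD, the pathway list held 20 further genes, of which 19 passed the filter on low reads (PGRPS4 did not). On day 3, 4 of the 19 rose in BF and 6 fell, so 10 were called, in a comparison that called 64.9% of all genes, 32.3% higher and 32.6% lower. Their median log2 fold change was -0.02, against 0.02 over all tested genes. On day 10, 2 rose and 3 fell, where 8.55% of all genes were called higher and 10.7% lower in BF, and on day 20, 1 rose and 2 fell, where 9.31% were called higher and 12.1% lower. With exon reads scaled on their own, the counts were 6 rises and 4 falls on day 3, 1 and 3 on day 10, and 2 and 2 on day 20.

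At the receptor step, PGRPLC, the membrane receptor of the pathway, had 38.5 ± 8.39 CPM in BF (SD, n = 4) and 17.5 ± 1.18 CPM in SF ovaries (SD, n = 3) on day 3, a log2 fold change of 1.14 (FDR p-value 3.22e-05, SE 0.18). PGRP-LE, an intracellular sensor in Drosophila, rose by 1.57 on day 3 and by 0.73 on day 10 on the log2 scale, but the day 10 call was lost without BF day 10 replicate 2 or SF day 10 replicate 4 (FDR p-values up to 0.0601). It overlaps another protein-coding gene on the opposite strand with more reads, so its reads are uncertain. PGRPLA, which supports the pathway in Anopheles, rose by 2.31 on day 3 and 1.61 on day 20, at only 4.13 CPM in BF and 0.83 CPM in SF ovaries on day 3. PGRPS1, a short PGRP, had an FDR p-value of 0.0493 on day 10 (log2 fold change 0.87). That call was lost with 16 of the 19 libraries left out in turn and under 5 of the 11 other settings. The amidase gene PGRPLB was not called on any day.

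Among the proteins that act with IMD, the calls on gene reads were falls. FADD, the partner that links IMD to the caspase, had 4.31 ± 0.388 CPM in BF (SD, n = 4) and 8.17 ± 1.02 CPM in SF ovaries (SD, n = 3) on day 3, a log2 fold change of -0.92 (FDR p-value 5.71e-06, SE 0.13). On day 20 it lay the other way without passing the test, at 12.5 ± 1.26 CPM in BF and 9.73 ± 0.556 CPM in SF ovaries (SD, n = 3 each), a log2 fold change of 0.37 (FDR p-value 0.0622) that passed on exon reads scaled on their own (0.41, FDR p-value 0.0401). Dredd, the caspase that cleaves IMD and Relish in Drosophila, changed by -0.59 on day 3 and -0.53 on day 10 on the log2 scale. The kinase TAK1 changed by -0.26 on day 10 and -0.29 on day 20, calls that were lost without any 1 of 7 and of 4 libraries in turn (FDR p-values up to 0.175 and 0.0883). Under 4 and 2 of the 11 other settings these TAK1 calls were also lost (FDR p-values up to 0.171 and 0.0935). Its partner tab2 was not called. IKK2 was the gene of the list called lower on all 3 days, with log2 fold changes of -0.20, -0.38 and -0.35. Its day 3 call was lost on exon reads scaled on their own (-0.06, FDR p-value 0.458) and with upper-quartile scaling (-0.10, FDR p-value 0.116). IKK1 was not called on gene reads, and on exon reads scaled on their own it was called higher in BF on day 3 (0.17, FDR p-value 0.0267). It overlaps a gene on the opposite strand.

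Of the ubiquitin genes of the pathway, IAP2, a ubiquitin ligase, changed by -0.62 on the log2 scale on day 3 (FDR p-value 4.46e-07). The conjugating enzyme gene eff changed by -0.26 on that day, a call that was lost on exon reads scaled on their own (FDR p-value 0.0938), while ben and Uev1A were not called on gene reads. With that scaling of exon reads Uev1A was called higher in BF on day 3 (0.20, FDR p-value 0.00595). The negative regulator casp (Caspar) had 230 ± 5.70 CPM in BF (SD, n = 4) and 308 ± 16.6 CPM in SF ovaries (SD, n = 3) on day 3, a log2 fold change of -0.42. The other negative regulators of the list, pirk and DNR1, were not called on any day. At the end of the pathway, REL2 had 64.4 ± 19.1 CPM in BF and 29.3 ± 4.17 CPM in SF ovaries on day 3, a log2 fold change of 1.14 (FDR p-value 4.40e-04, SE 0.23), with 31.9 ± 3.01 CPM in BF and 34.7 ± 8.21 CPM in SF ovaries on day 10 (SD, n = 3 each). IMD was thus called on all 3 days and REL2 on day 3 alone, and the difference between the 2 genes was not tested.

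**Figure D2:**
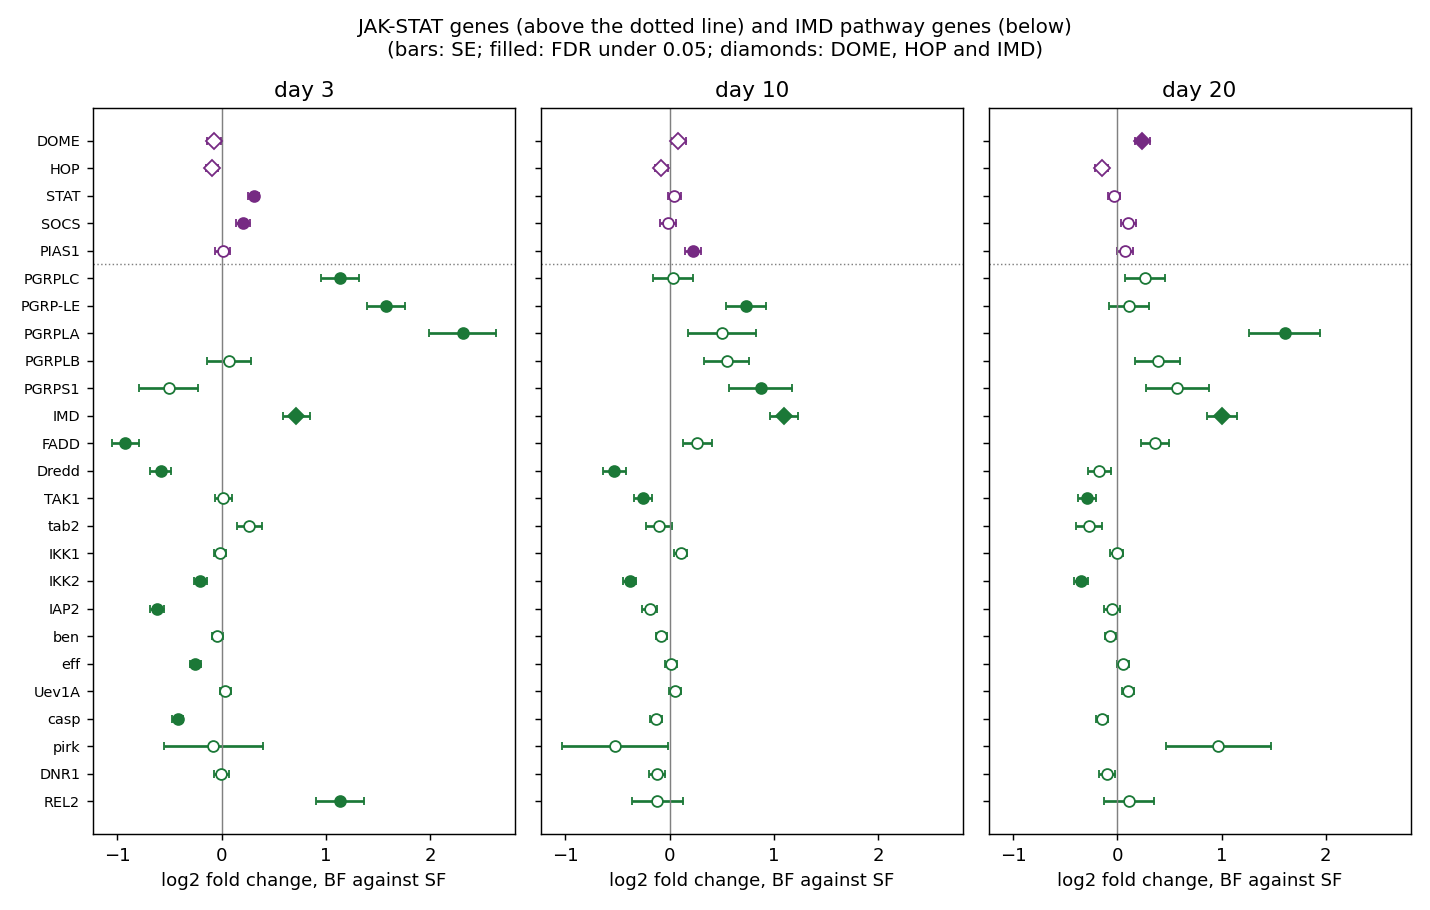
Log2 fold changes of BF against SF for DOME, HOP and IMD (diamonds) and the tested genes of their pathways, with SE as bars and filled symbols for an FDR p-value under 0.05. IMD is filled on all 3 days (0.72, 1.10 and 1.00), and of the receptors PGRPLA reaches the highest value, 2.31 on day 3.

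DOME, the receptor of the JAK-STAT pathway, differed little between diets on the first days. On day 3 it had 174, 199, 171 and 185 CPM in BF replicates 1, 2, 3 and 4, against 204, 179 and 192 CPM in SF replicates 1, 2 and 4. The groups overlapped, with BF replicate 2 above 2 of the SF libraries. Their log2 fold change was -0.07 (95% interval -0.21 to 0.07, FDR p-value 0.340), and its sign turned to 0.02 with upper-quartile scaling and to 0.08 on exon reads scaled on their own. On day 10 it had 201.7, 219 and 215 CPM in BF replicates, against 201.8, 198 and 199 CPM in SF replicates. Only BF replicate 1 fell within the SF range, and the log2 fold change was 0.08 (95% interval -0.06 to 0.23, FDR p-value 0.433).

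On day 20, DOME had 212, 255 and 245 CPM in BF replicates 1, 2 and 4, against 196, 201 and 208 CPM in SF replicates. All BF libraries lay above all SF libraries, with BF replicate 1 close to the SF group, and 18% of tested genes had BF above SF without overlap. The log2 fold change was 0.24 (SE 0.07, FDR p-value 0.0236), or 1.18-fold with a 95% interval of 1.06 to 1.31. The call was lost without BF replicate 2 (FDR p-value 0.0880), BF replicate 4 (0.0561), SF replicate 1 (0.0626) or SF replicate 2 (0.0559) of day 20, and when each day was fitted separately (0.0695). On exon reads the log2 fold change was 0.24 (FDR p-value 0.0246), lost without the same 4 libraries, with FDR p-values up to 0.126.

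The diet effect on DOME differed between days 20 and 3. The effect on day 20 minus that on day 3 was 0.31 on the log2 scale (SE 0.10, 95% interval 0.11 to 0.52, FDR p-value 0.0164), in a comparison that called 38.8% of all tested genes. It held without each of the 19 libraries (0.30 to 0.42). On exon reads the difference was 0.35, where 35.8% of genes were called, but on exon reads scaled on their own it was 0.20 and not called (FDR p-value 0.159). Within BF ovaries, DOME was higher on day 10 than on day 3 by a log2 fold change of 0.22 (FDR p-value 0.00905, SE 0.07) and higher on day 20 than on day 3 by 0.38 (SE 0.07, FDR p-value 5.76e-05). The day 10 call was lost on exon reads scaled on their own (0.07, FDR p-value 0.419) and with upper-quartile scaling (0.16, FDR p-value 0.0541), and the day 20 call was not. These BF comparisons called 61% and 66.8% of all tested genes. In SF ovaries the matching values were 0.06 (95% interval -0.09 to 0.21) and 0.07 (95% interval -0.08 to 0.22), and neither was called. DOME averaged 182 ± 12.4 CPM in BF ovaries of day 3 (SD, n = 4), the lowest of the 6 groups, and 238 ± 22.5 CPM in those of day 20 (SD, n = 3), the highest, though each group overlapped its neighbour in that order.

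HOP, the kinase bound to DOME, was slightly lower on average in BF than in SF ovaries, and no day passed the test. On day 3 it had 193, 200, 204 and 185 CPM in BF replicates 1, 2, 3 and 4, against 201, 228 and 198 CPM in SF replicates 1, 2 and 4. The groups overlapped, and SF replicate 2 was the highest library. Between diets the log2 fold change was -0.10 (95% interval -0.22 to 0.03, FDR p-value 0.161). It passed the threshold without SF replicate 4 (-0.17, FDR p-value 0.0331) or BF replicate 3 (-0.15, FDR p-value 0.0467) of that day, and was 0.00 with upper-quartile scaling.

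On day 10, HOP had 214, 211 and 218 CPM in BF replicates 1, 2 and 4, against 235, 224 and 221 CPM in SF replicates. All BF libraries lay below all SF libraries by a small margin, as they did for 20.2% of tested genes. On that day the log2 fold change was -0.08 (95% interval -0.21 to 0.05, FDR p-value 0.396), with a value of 0.00 under upper-quartile scaling. On day 20 it had 225, 197 and 212 CPM in BF replicates, against 229, 245 and 229 CPM in SF replicates. The BF libraries were again all below the SF libraries, as for 19.2% of tested genes, and the log2 fold change was -0.15 (95% interval -0.28 to -0.02, FDR p-value 0.0990). The lower ends of the intervals allow BF levels of HOP down to 0.859, 0.864 and 0.823 times those in SF on days 3, 10 and 20.

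Over time, HOP lay near the threshold on gene reads. With edgeR, the log2 fold change of day 20 against day 3 was 0.16 in SF ovaries (SE 0.06, FDR p-value 0.0766) and 0.11 in BF ovaries (SE 0.06, FDR p-value 0.101), and that of day 10 against day 3 in BF ovaries was 0.13 (SE 0.06, FDR p-value 0.0604). DESeq2 called all 3, at 0.18 in SF (FDR p-value 0.0322) and, in BF, at 0.15 for day 20 (0.0247) and 0.16 for day 10 (0.0181). With edgeR the BF value of day 10 was called without 16 of the 19 libraries in turn, the BF value of day 20 without 8, and the SF value of day 20 without SF day 3 replicate 2 alone (FDR p-value 0.0236). On exon reads, BF ovaries had more HOP on days 10 and 20 than on day 3, by 0.27 (FDR p-value 0.00255) and 0.25 (FDR p-value 0.00528), in comparisons that called 57.5% and 62.7% of genes, but both calls were lost on exon reads scaled on their own (0.09 and 0.06). On intron reads the matching values were -0.97 and -0.89, where 82.2% and 84.5% of genes were called, and they turned to 0.14 and 0.28 on intron reads scaled on their own. On gene reads the diet effect on HOP was not shown to differ between days, at 0.02 on the log2 scale for day 10 minus day 3 (95% interval -0.16 to 0.20) and -0.05 for day 20 minus day 3 (95% interval -0.23 to 0.13).

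The JAK-STAT list held 4 further genes, of which 3 passed the filter (PIAS2 did not). On day 3, 2 of the 3 rose in BF, where 32.3% of all tested genes did, and on day 10, 1 rose, where 8.55% did. On day 20, where 9.31% of genes rose and 12.1% fell, the count was 0 by edgeR, limma-voom and DESeq2 alike, also at an unadjusted p under 0.05. STAT, the transcription factor of the pathway, had 549 ± 26.3 CPM in BF (SD, n = 4) and 444 ± 17.5 CPM in SF ovaries (SD, n = 3) on day 3, a log2 fold change of 0.31 (FDR p-value 8.66e-05, SE 0.05), and log2 fold changes of 0.05 on day 10 and -0.03 on day 20. SOCS, a feedback inhibitor of the kinase, had 268 ± 11.6 CPM in BF and 233 ± 6.57 CPM in SF ovaries on day 3 (log2 fold change 0.20, FDR p-value 0.0164), a call that was lost on exon reads scaled on their own (FDR p-value 0.0614) and without any 1 of 7 libraries (up to 0.122). PIAS1, an inhibitor of STAT, had a log2 fold change of 0.23 on day 10 (FDR p-value 0.0440), and that call was lost without any 1 of 9 libraries (up to 0.285). It was also lost under 3 of the 11 other settings, with limma-voom among them (FDR p-value 0.0508). On day 3, STAT was therefore called higher in BF, while its upstream receptor and kinase were not called in either direction, and the difference between these genes was not tested.

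Split into exon and intron reads, DOME and HOP showed a difference on day 3 that their gene reads did not. On the scale of the gene reads, 85.7% of the 9498 genes tested on intron reads were called on day 3 and 83.9% were called higher in BF, with a median log2 fold change of 1.31. The intron reads of DOME numbered 353, 259, 280 and 360 in BF replicates 1, 2, 3 and 4, against 66, 58 and 118 in SF replicates 1, 2 and 4. No BF library came near the SF group. The log2 fold change was 2.11 (SE 0.20, FDR p-value 2.85e-10), or 4.33-fold with a 95% interval of 3.25 to 5.77, and 8.02% of genes had a log2 fold change above it. Scaled to the intron reads of all genes it was still called, at 0.82 (FDR p-value 1.52e-05).

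The intron reads of HOP numbered 1624, 1172, 1328 and 1569 in BF replicates 1, 2, 3 and 4, against 635, 699 and 1054 in SF replicates 1, 2 and 4, on day 3. The groups did not overlap, and SF replicate 4 came nearest to the BF libraries. The log2 fold change was 1.00 (SE 0.19, FDR p-value 2.08e-05), below that of 69.8% of genes. Scaled to the intron reads of all genes its sign turned, to -0.31 (FDR p-value 0.0146), so the introns of HOP gained less than those of the median gene. For IMD the log2 fold change on intron reads was 1.00 (SE 0.43, FDR p-value 0.0297), below that of 69.5% of genes. It turned to -0.29 (FDR p-value 0.639) with that scaling, and the call was lost without BF day 3 replicate 2 (FDR p-value 0.0739) or SF day 3 replicate 1 (0.233).

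**Figure D3:**
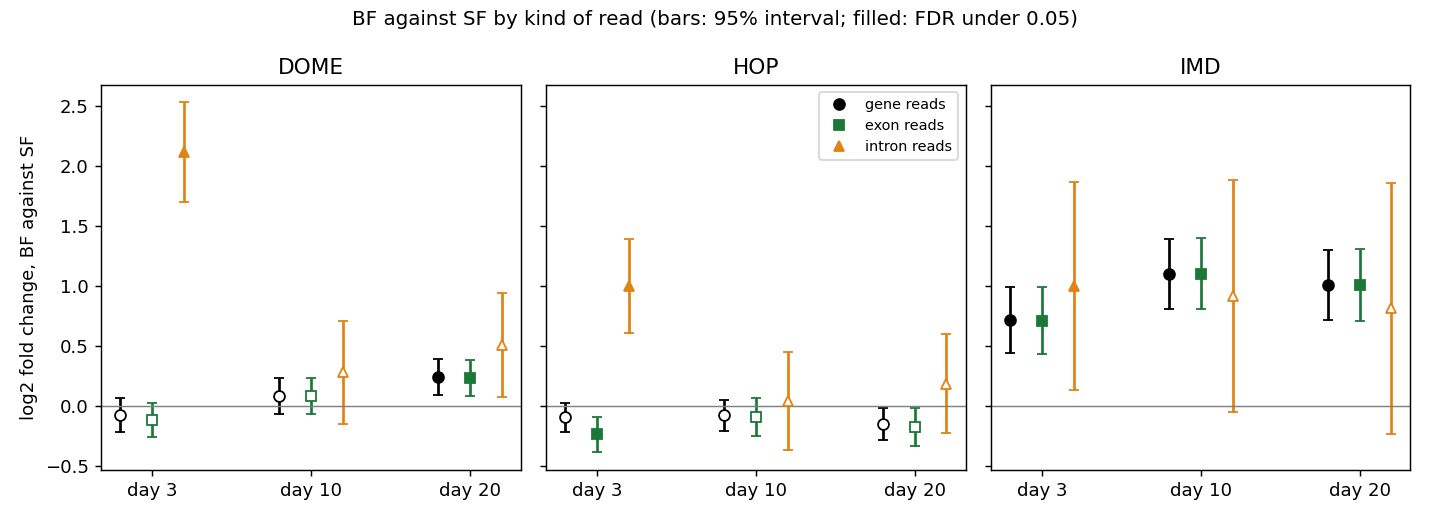
Log2 fold changes of BF against SF with 95% intervals on gene, exon and intron reads, all on the scale of the gene reads, with filled symbols for an FDR p-value under 0.05. The intron reads of DOME stand out on day 3 (2.11), and for IMD the gene and exon reads nearly coincide on each day.

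On exon reads of day 3, where the median gene had a log2 fold change of -0.17 on this scale, DOME was at -0.12 (SE 0.07, FDR p-value 0.132) and HOP at -0.24 (SE 0.07, FDR p-value 0.00672). The HOP call was lost with exon reads scaled on their own (-0.04, FDR p-value 0.621) and without SF day 3 replicate 2 (-0.16, FDR p-value 0.0706). DOME was called on exon reads of day 3 only without BF replicate 2 (-0.16, FDR p-value 0.0469). The exon comparison called 61.6% of 13297 genes on that day. Exon reads of HOP on days 10 and 20 were at -0.09 and -0.18 and were not called.

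As a share of gene reads, the introns of DOME gave 4.29%, 3.67%, 3.25% and 4.19% in BF replicates 1, 2, 3 and 4, against 0.646%, 0.673% and 1.21% in SF replicates 1, 2 and 4, on day 3. Those of HOP gave 17.8%, 16.5%, 12.96% and 18.3% in BF, against 6.32%, 6.36% and 10.5% in SF replicates. Both genes had each BF library above each SF library, and the share of genes with such a gap was not counted. The differences of the means were 3.01 percentage points for DOME and 8.66 for HOP, each with a two-sided exact permutation p of 0.0571, the smallest that 4 against 3 libraries can give, and 0.257 after adjustment over the 9 tests. Over the tested genes, the median intron share was 8.33% in BF and 3.81% in SF ovaries on day 3. For IMD the share was 2.43% ± 0.486 in BF (SD, n = 4) and 1.88% ± 1.17 in SF ovaries (SD, n = 3), and the libraries overlapped.

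By day 10 the intron share of DOME was 1.11% ± 0.110 in BF and 0.976% ± 0.134 in SF ovaries, and that of HOP 7.61% ± 0.995 in BF and 7.03% ± 1.41 in SF ovaries (SD, n = 3 each), with overlap for both genes. On day 20, DOME lay at 1.08% ± 0.0730 in BF and 0.890% ± 0.0198 in SF ovaries without overlap, and HOP at 8.23% ± 1.39 in BF and 6.48% ± 0.776 in SF ovaries with overlap (SD, n = 3 each). Over the tested genes, the median intron share was 4.33% in BF and 3.57% in SF ovaries on day 10. The medians of day 20 were 4.28% in BF and 3.21% in SF ovaries. How many genes had intron shares without overlap was not counted. The exact permutation p on these days was 0.1 or more, where 0.1 is the smallest that 3 against 3 can give. On intron reads neither gene was called on days 10 and 20, where 2.96% and 8.53% of genes were. DOME was at 0.28 (95% interval -0.15 to 0.71) and 0.51 (95% interval 0.07 to 0.94), and HOP at 0.04 (95% interval -0.37 to 0.45) and 0.19 (95% interval -0.22 to 0.59) on the log2 scale. The intron effects of both genes were smaller on days 10 and 20 than on day 3 by the test of the difference, in comparisons that called 60.4% and 55.6% of genes. With intron reads scaled on their own, the differences for DOME stayed called (-0.84 and -0.69), while those for HOP turned to 0.05 and 0.10, and the day 20 difference for HOP also lost its call without SF day 3 replicate 1 (FDR p-value 0.0565).

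**Figure D4:**
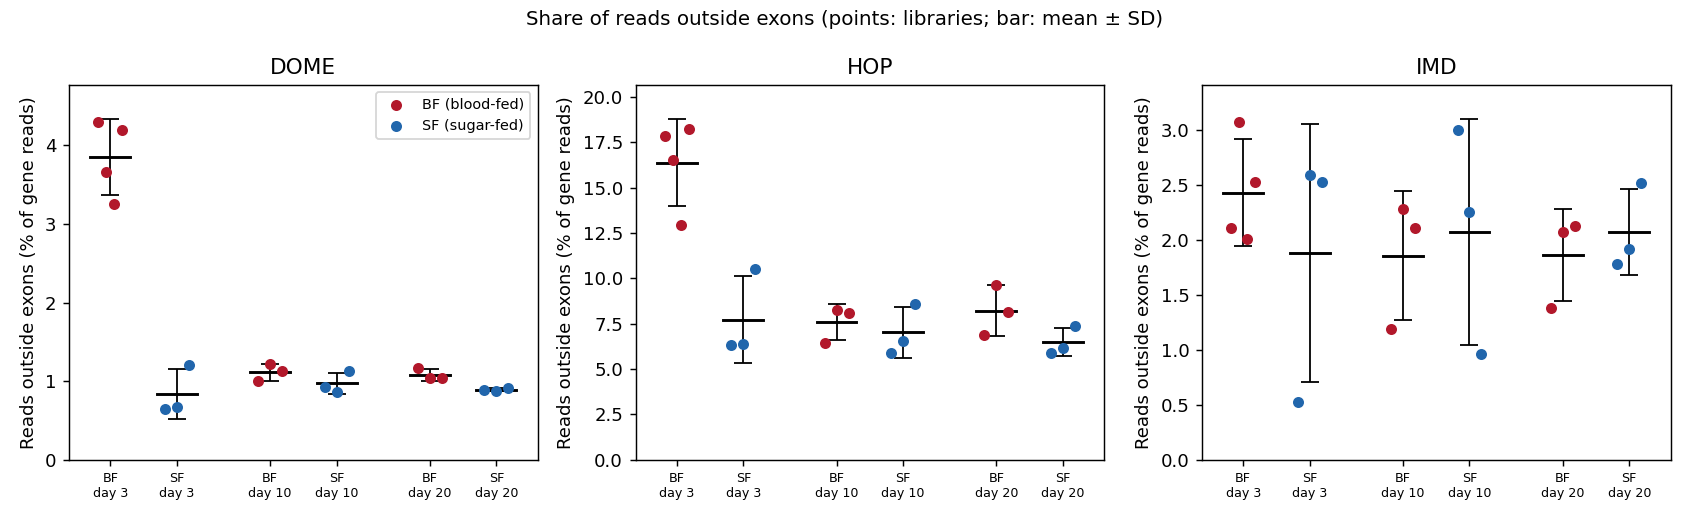
Reads outside exons as a percentage of the gene reads of DOME, HOP and IMD, with 1 point for each library and mean ± SD as bars. The BF libraries of day 3 lie at 3.25% or above for DOME and 12.96% or above for HOP, above all other libraries of those genes, and IMD shows no such gap.

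The share of exon reads that span a junction varied little for the long genes. It lay between 30.2% and 34.1% for DOME and between 37.9% and 42.5% for HOP over the 19 libraries. For HOP on day 3 it was 37.9% to 40.7% in BF and 40.3% to 42.3% in SF libraries, which overlap. For IMD, whose single intron leaves 1 junction, it was 5.98% to 8.67% in BF and 8.87% to 10.3% in SF libraries on day 3, without overlap but on few junction reads. No test was run on these shares, and how many genes had junction shares without overlap was not counted.

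The genes whose levels over the 19 libraries were most like each member were named by Pearson's r of log2 CPM, as a description, since all points share their libraries and diets. For IMD they were AAEL006274 (r = 0.949), AAEL007914 (r = 0.938) and AAEL006672 (r = 0.931), all protein-coding and on chromosome 2. AAEL007914 had 51.8 CPM in BF and 21.6 CPM in SF ovaries on day 3, 37.1 CPM in BF and 17.5 CPM in SF on day 10, and 32.4 CPM in BF and 13.4 CPM in SF on day 20, the same order of groups by diet as IMD. Among genes with a symbol, IMD was nearest to CYP315A1 (r = 0.878), which codes for a cytochrome P450 of ecdysone synthesis, GPRSTN (0.872) and ppk201 (0.865). For DOME the nearest was the long noncoding RNA AAEL023510 (r = 0.933) on chromosome 2, and among genes with a symbol ORP9 (0.817), OSBP (0.816) and Hnf4 (0.784). For HOP the nearest were AAEL010903 (r = 0.922), AAEL012930 (0.922) and AAEL011289 (0.919), and among genes with a symbol mRpL37 (0.880), of the mitochondrial ribosome, HPX8B (0.863) and Aats-ala-m (0.850). With Spearman's rho, at most 1 of the 3 genes remained in each of these lists.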

How the data were processed

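The data were 19 libraries of ovary RNA prepared with a stranded, rRNA-depleted total RNA kit. The authors trimmed the reads, mapped them to AaegL5.0 in the CLC Genomics Workbench and deposited, per gene, counts without normalization and RPKM values, which divide exon reads by exon length and mapped reads. For strand setting and annotation release, the entry is the same: not given in the sources used here. Intron reads were taken as deposited, and they equalled gene minus exon reads for every gene and library. The deposited counts went into edgeR 4.0.16 (R 4.3.3): filterByExpr (minimum count 10, total 15), TMM, 6 groups in 1 robust quasi-likelihood fit with 13 residual degrees of freedom. An FDR p-value is a Benjamini-Hochberg adjustment over every gene tested, and a gene was called when it was under 0.05. Exon and intron reads used the library sizes and TMM factors of the gene reads. Intron shares were compared by exact permutation in scipy 1.17.1. RPKM served only for levels between genes, and CPM and log2 fold changes for the rest.

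The members and lists were chosen with earlier results of these data known. Named genes were the 3 members, the pathway and marker lists taken by symbol, and for each member the 3 genes of any kind and the 3 with a symbol with the highest Pearson's r (log2 CPM, prior count 2). Replicate libraries of a group differed by more than sampling noise (chi-square per degree of freedom at least 15.2). They are separate biological replicates as the study names them, and p-values measure the spread between these pools. Counts were simulated from these libraries with known changes in a small part of the genes. Among 13657, 13618 and 13642 genes, the fit recovered 62.6%, 62.9% and 59.8% of the changes of a log2 fold change of 1 on days 3, 10 and 20, with 0 in the wrong direction. Of its calls, 5.5%, 3.3% and 4.3% were unchanged genes. The data of day 3, with 64.9% of genes called, differ from that setting. Alternatives were DESeq2 1.42.0, limma-voom (limma 3.58.1), RLE, upper-quartile and library-size scaling, other filters, unique reads, exon reads with their own factors, separate days, a replicate block and leaving out each library. For the effects between days and for the ages, leaving out libraries and the other scalings, filters and read sets were added after seeing the data. No gene sequences were used.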

Additional observations from a re-analysis of the deposited data

Results flagged for a closer look

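The diet effect on DOME differed between days by a test of the difference itself. On gene reads the effect of day 20 minus that of day 3 was 0.31 on the log2 scale (FDR p-value 0.0164), and on exon reads it was 0.35 (FDR p-value 0.00798), but on exon reads scaled on their own it was 0.20 (FDR p-value 0.159). On intron reads, scaled by the factors of the gene reads, the effects on DOME were smaller on the later days than on day 3, by -1.83 for day 10 minus day 3 (FDR p-value 1.75e-05) and by -1.61 for day 20 minus day 3 (FDR p-value 1.33e-04). The same held for the intron reads of HOP, at -0.96 for day 10 minus day 3 (FDR p-value 0.00446) and -0.81 for day 20 minus day 3 (FDR p-value 0.0149). These intron comparisons called 60.4% and 55.6% of the 9498 genes tested, and the higher intron share of the day 3 BF libraries moves with them. Its part in them was not tested. With intron reads scaled on their own, the 2 differences for DOME stayed called and those for HOP changed sign (0.05 and 0.10).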

How the results depend on the processing

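The calls of IMD between diets on gene and exon reads and the day 3 intron reads of DOME kept their direction and their side of the threshold under each alternative run, single libraries left out included. With upper-quartile scaling, on gene reads, DOME on day 3 was 0.024 and HOP on days 3 and 10 was 0.0045 and 0.0033, IMD in BF on day 10 against day 3 was -0.057, DOME in SF on day 20 was -0.022 against day 3 and -0.035 against day 10, DOME in BF on day 10 against day 3 was 0.16 (not called), HOP in BF on day 20 against day 3 was -0.00076 and the HOP effect of day 10 minus day 3 was -0.0012, and that scaling put 68.4% and 66.2% of the calls of days 10 and 20 higher in BF (62.0% and 64.7% by library size alone), against 44.3% and 43.5% with TMM. With exon reads scaled on their own, DOME on day 3 was 0.082 and HOP -0.039 (not called), the DOME effect of day 20 minus day 3 was 0.20 and DOME in BF on day 10 against day 3 0.071 (neither called), IMD in BF on day 10 against day 3 was -0.17, DOME in SF on day 20 against day 10 was -0.0061, the HOP effect of day 10 minus day 3 was -0.025, and HOP in BF was 0.091 and 0.062 on days 10 and 20 against day 3 (not called). With intron reads scaled on their own, IMD was -0.29 on day 3, DOME -0.023 on day 10 and HOP -0.31, -0.26 and -0.21 on days 3, 10 and 20, the HOP effects of days 10 and 20 minus day 3 were 0.049 and 0.099, HOP in BF on days 10 and 20 against day 3 was 0.14 and 0.28, and 3529, 84 and 134 genes were called, against 8141, 281 and 810. Library size alone gave -0.0053 for IMD in BF on day 10 against day 3 and -0.0099 for DOME in SF on day 20 against day 10, which was -0.0019 with 10 reads in 3 libraries of a group, and without a filter IMD in BF on day 20 against day 3 was -0.31 (not called). RLE scaling, no filter, the filter of 10 reads and unique reads called HOP in BF on day 10 against day 3 (0.15 to 0.17), and RLE scaling and unique reads called it on day 20 (0.15). Each day fitted separately left DOME on day 20 at 0.23 (not called), and DESeq2 called HOP on day 20 against day 3 in SF (0.18) and BF (0.15) and on day 10 against day 3 in BF (0.16). The study counts 18 of the samples as 3 biological replicates, each with a library in every group. Neither the study nor the labels say what the libraries of a number shared, and the main fit did not pair them. Its p-values treat libraries of the same number as independent. In deviations from the group means, 2 of 9 same-number pairs of a day correlated above 0.1, against 0 of 18 different-number pairs. Over any groups 15 of 45 same-number pairs did, and within a day 15 of 18 libraries correlated best with their own number. Libraries of the same number thus tended to vary together. With the replicate block, DOME intron reads of day 20 (0.51) and HOP in BF on day 10 against day 3 (0.15) were called, IMD in BF on day 20 against day 3 (-0.30) was not, and 1125 and 2553 genes were called on intron reads of days 10 and 20. Leaving out 1 library gave, on gene reads, 0.20 to 0.32 for DOME on day 20 and -0.17 to -0.062 for HOP on day 3. On exon reads it gave -0.16 to -0.070 for DOME and -0.30 to -0.16 for HOP on day 3, and 0.18 to 0.31 for DOME on day 20. On intron reads it gave 0.54 to 1.43 for IMD on day 3, -0.048 to 0.19 for HOP on day 10 and -1.04 to -0.67 for the HOP effect of day 20 minus day 3. Between days it gave -0.18 to 0.0062 for the IMD effect of day 20 minus day 10, and -0.015 to 0.094 and -0.082 to 0.040 for the HOP effects of days 10 and 20 minus day 3. In BF ovaries it gave -0.091 to 0.10 and -0.43 to -0.26 for IMD on days 10 and 20 against day 3, 0.10 to 0.19 and 0.082 to 0.19 for HOP, and -0.079 to 0.030 for HOP on day 20 against day 10. In SF ovaries it gave -0.024 to 0.019 for DOME on day 20 against day 10 and 0.12 to 0.23 for HOP on day 20 against day 3. The counts of genes called on gene reads of day 10 ran from 1126 to 2851 and of day 20 from 1601 to 3169, and on intron reads from 13 to 570 and from 80 to 1501. The causes of these shifts were not tested. All values are log2 fold changes unless named as counts, and depth limits the intron reads of IMD.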
